A study of Mus musculus with 9 samples.

Results

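The 10 genes described here encode core parts of the machinery that builds, loads and releases extracellular vesicles (EVs). They are the tetraspanins Cd9, Cd63 and Cd81, the ESCRT genes Tsg101 and Pdcd6ip (the gene of ALIX), the syntenin gene Sdcbp and its partner syndecan Sdc4, the small GTPases Rab27a and Rab27b, and the neutral sphingomyelinase gene Smpd3. They were picked by name and function with earlier results of these data known, so their own levels and fold changes are given as a description and no test is drawn from them. All 10 were found among 56246 gene rows, and all 10 were among the 17948 genes with enough reads to be tested.

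Bulk RNA of the prefrontal cortex (PFC) was sequenced in 9 libraries from male mice on the C57BL/6 background, 3 per group, at 8 to 12 weeks of age per the study's methods. The groups were Rag1-/- mice given EVs from the blood serum of WT mice (Rag1-/- + WT EVs, replicates 2, 3 and 5), Rag1-/- mice given the carrier medium (Rag1-/- + vehicle, replicates 1, 2 and 3), and WT mice (replicates 1, 3 and 6). EVs and vehicle were injected into a vein, and the study's supplement says that WT mice received medium as well, although their treatment label reads as none. Rag1-/- was a germline deletion, not specific to any tissue, and such mice lack mature T and B cells. The labels do not say which mice were littermates, so a p-value here reflects no more than how these libraries spread.

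Gene reads per library were 32 to 41.2 M. Reads outside annotated exons took 6.54 to 6.90% in Rag1-/- + vehicle and 7.73 to 11.2% in Rag1-/- + WT EVs. In WT they took 10.9, 8.11 and 30.1% in replicates 1, 3 and 6. All vehicle libraries were thus below all others, so values adjusted for these reads cannot fully separate them from the vehicle group. WT replicate 6 was also the lowest of all 9 libraries for 7 of the 10 genes. The vehicle to WT differences of the 10 genes are therefore also given without it, or for Rab27a and Rab27b as a range with any 1 library left out. Those of other genes are given without it where they kept their call. Rag1 stood at 6.26 to 7.32 CPM (reads per M gene reads, with TMM-scaled library sizes) in the libraries labelled Rag1-/- + WT EVs, at 6.85 to 7.82 CPM in those labelled Rag1-/- + vehicle and at 0.232 to 1.09 CPM in WT. The Rag1 count is thus higher under the Rag1-/- label, and a count over the whole gene does not show whether reads come from the deleted part, so it is no check of the deletion and the groups are named below as labelled. The 7 T and B cell markers summed to at most 1.09 CPM in every library and Cd3d was at 0 in all 9, while the 8 neuron markers summed to at least 9830 CPM in every library.

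EVs are small membrane particles that cells send out, and they carry proteins, lipids and RNA to other cells. One route begins when the membrane of a late endosome buds inward to make small vesicles, a step served by the ESCRT complexes, by ALIX with syntenin and syndecans, or by ceramide that neutral sphingomyelinase makes from sphingomyelin. Rab27 proteins then bring the loaded endosome to the cell surface, where it fuses and sets its vesicles free as exosomes, while the tetraspanins CD9, CD63 and CD81 sit in vesicle membranes and are the usual protein markers of EVs. In brain, astrocytes, neurons, microglia and oligodendrocytes all release EVs.

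The miRNAs that the study put forward as cargo of the WT vesicles are miR-23a-3p and miR-103-3p. Both are shown because the 10 genes were searched for their seed matches, with the seed (bases 2 to 8) in capitals, as RefSeq gives them for GRCm38.p6.
miR-23a-3p: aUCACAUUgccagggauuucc
miR-103-3p: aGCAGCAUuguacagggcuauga
A match to the seed of miR-23a-3p (AATGTGA, on the transcript's strand) was found in the longest 3' UTR of 15.1% of 21022 protein-coding genes, and a match to that of miR-103-3p (ATGCTGC) in 11.3%. Of the 10 genes, Sdcbp alone held either match, and it held both. They lie in exon 9 of 9 of the transcript Sdcbp-201, in its 3' UTR of 1720 bases, on the plus strand of GRCm38 at chr4:6395636-6395664 for miR-23a-3p (base 1083 of the UTR) and chr4:6394650-6394678 for miR-103-3p (base 97). The matches are in capitals.
Sdcbp match to miR-23a-3p: aaatgtataaaAATGTGAaatttccgtct
Sdcbp match to miR-103-3p: ccagggagaatATGCTGCatggagacctt
These matches are a description of letters, and the counts for Sdcbp given further on stood at much the same level in all 3 groups.

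The promoters of Sdc4 and Cd63 are shown because these were the 2 genes with the widest differences between groups. Each run is the 250 bases before the RefSeq gene start in GRCm38.p6, written along the gene's own strand, at chr2:164443189-164443438 (minus strand) for Sdc4 and chr10:128909095-128909344 (plus strand) for Cd63. Both windows lie inside the wider gene bounds of GENCODE given with each gene further on, since RefSeq places these starts further downstream. Capitals mark GGGCGG, the letters of a GC box, which was searched on both strands together with CACGTG, an E-box that TFEB and related factors of lysosomal genes can bind.
Sdc4 promoter: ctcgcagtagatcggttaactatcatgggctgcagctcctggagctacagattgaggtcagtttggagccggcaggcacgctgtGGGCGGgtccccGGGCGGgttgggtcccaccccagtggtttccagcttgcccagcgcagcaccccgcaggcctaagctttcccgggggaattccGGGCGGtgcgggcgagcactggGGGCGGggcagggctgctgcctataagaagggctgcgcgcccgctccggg
Cd63 promoter: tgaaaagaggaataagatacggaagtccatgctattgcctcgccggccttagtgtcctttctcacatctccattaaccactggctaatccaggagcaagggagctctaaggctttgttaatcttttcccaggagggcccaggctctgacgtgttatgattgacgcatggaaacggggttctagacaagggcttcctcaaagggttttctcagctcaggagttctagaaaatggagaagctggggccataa
GGGCGG stood 4 times in the Sdc4 window and 0 times in that of Cd63, beside a share of 32.7% of 32851 promoters of the same length with at least 1 match. CACGTG was in neither window and in 6.02% of all promoters. Of the 7 genes with an entry, Cd9 (2 matches), Cd81 (3) and 1 of the 2 entries of Rab27a (1) also held GGGCGG, while Pdcd6ip and the other Rab27a entry each held 1 CACGTG.

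Sdc4 and Cd63 were lower in Rag1-/- + vehicle than in every WT library, and higher in Rag1-/- + WT EVs than in every vehicle library. Cd9 also had its lowest group mean in vehicle, with smaller differences. Pdcd6ip ran the opposite way, highest in all 3 vehicle libraries, and Tsg101 and Smpd3 had their highest group means there too. When adjusted for outside-exon reads, the vehicle to WT differences of Pdcd6ip, Tsg101 and Smpd3 shrank to 0.08, 0.02 and 0.10 on the log2 scale. Cd81, Sdcbp, Rab27a and Rab27b had vehicle to WT differences of 0.03 to 0.22.

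**Figure D1:**
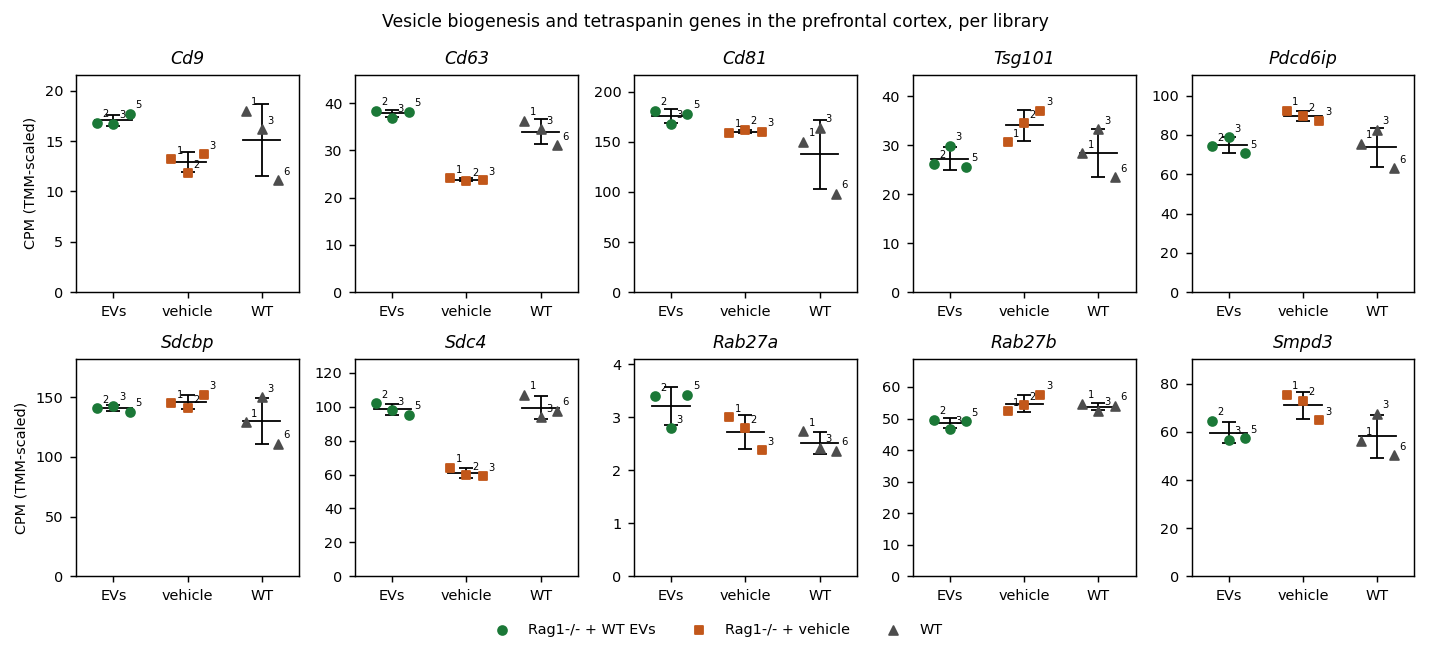
CPM of each of the 10 genes (y axis, from 0, a scale per panel) in Rag1-/- + WT EVs, Rag1-/- + vehicle and WT (x axis); points are libraries with their replicate number, bars the mean ± SD of 3. Sdc4 and Cd63 dip in all 3 vehicle libraries, at 58.9 to 64.1 and 23.5 to 24.1 CPM, and WT replicate 6 lies below the other WT libraries in most panels.

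Sdc4 encodes syndecan-4, a heparan sulfate proteoglycan of the cell surface whose tail binds syntenin, and lies on chr2:164424247-164443887 (GRCm38, minus strand). It had 102, 97.9 and 95.3 CPM in Rag1-/- + WT EVs, 64.1, 59.5 and 58.9 CPM in Rag1-/- + vehicle, and 107, 93.7 and 97.6 CPM in WT. The 3 vehicle libraries lay together below all 6 others, and the EV libraries overlapped those of WT. On the log2 scale Sdc4 differed by -0.71 (SE 0.0822) between vehicle and WT, by 0.69 (SE 0.0822) between EVs and vehicle, and by -0.02 (SE 0.0816) between EVs and WT, each given here and further on as the group named first minus the other. The level in vehicle was 0.611 of that in WT, and the level with EVs was 1.62 times that with vehicle. Without WT replicate 6 the vehicle to WT difference was -0.73.

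Among the 4 syndecan genes, Sdc4 changed its place as well as its level. Per kb of exon, Sdc4 made up 53.4 to 54.0% of the summed syndecan signal in Rag1-/- + WT EVs, 37.8 to 41.4% in Rag1-/- + vehicle and 51.1 to 60.5% in WT. Sdc3, the syndecan of neurons, made up 29.5 to 30.3% in EV libraries, 39.6 to 42.6% in vehicle libraries and 26.9 to 32.7% in WT. Sdc3 was above Sdc4 in vehicle replicates 2 and 3 and below it in the other 7 libraries. Its own log2 difference between vehicle and WT was 0.28 (SE 0.11), with an edgeR adjusted p of 0.0918.

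Sdcbp encodes syntenin-1, the adaptor that joins syndecan tails to ALIX, on chr4:6365650-6408423 (plus strand). Its levels were 141, 143 and 138 CPM in Rag1-/- + WT EVs, 145, 141 and 152 CPM in Rag1-/- + vehicle, and 129, 150 and 111 CPM in WT. The groups overlapped in every comparison. The log2 differences were 0.16 (SE 0.103) for vehicle and WT, -0.05 (SE 0.103) for EVs and vehicle, and 0.11 (SE 0.103) for EVs and WT. Without WT replicate 6, its lowest library, the vehicle to WT difference was 0.06, and without WT replicate 3 it was 0.32. Adjusted for each library's outside-exon reads, that difference was -0.03, the opposite direction.

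Cd63 encodes a tetraspanin of late endosomes and lysosomes that is sorted into exosomes, and lies on chr10:128900989-128912822 (plus strand). It had 38.4, 36.9 and 38.2 CPM in Rag1-/- + WT EVs, 24.1, 23.5 and 23.7 CPM in Rag1-/- + vehicle, and 36.3, 34.5 and 31.1 CPM in WT. The vehicle libraries were close together (coefficient of variation 1.28%) and below all 6 others, and all 3 EV libraries were above all 3 WT libraries. The log2 difference was -0.51 (SE 0.0829) between vehicle and WT, 0.67 (SE 0.083) between EVs and vehicle, and 0.16 (SE 0.0823) between EVs and WT. As ratios, vehicle stood at 0.701 of WT and EVs at 1.59 times vehicle. Leaving out WT replicate 6 moved the first difference to -0.57, and offsets for GC content and exonic length moved the last to 0.

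Cd9 encodes a tetraspanin of the plasma membrane that is also abundant in EVs, on chr6:125460266-125494791 (minus strand). Its levels were 16.8, 16.7 and 17.7 CPM in Rag1-/- + WT EVs, 13.2, 11.8 and 13.7 CPM in Rag1-/- + vehicle, and 18, 16.2 and 11.1 CPM in WT. Every EV library was above every vehicle library, while WT replicate 6 was below all 3 vehicle libraries and WT replicates 1 and 3 were above them. The log2 difference was -0.22 (SE 0.154) between vehicle and WT and 0.40 (SE 0.155) between EVs and vehicle. The first of these was -0.40 without WT replicate 6, -0.12 when WT replicate 3 was dropped instead, -0.05 when WT replicate 1 was, and -0.51 when adjusted for outside-exon reads. Of the exonic length of Cd9, 10.7% overlaps another annotated gene, and strand was not used in counting, so part of its count is uncertain.

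Cd81, the most abundant of the 10 per kb, encodes a tetraspanin of the plasma membrane that pairs with immunoglobulin superfamily proteins and integrins, on chr7:143052739-143067934 (plus strand). It had 181, 168 and 178 CPM in Rag1-/- + WT EVs, 159, 162 and 160 CPM in Rag1-/- + vehicle, and 150, 164 and 98.3 CPM in WT. EV libraries lay above all vehicle and all WT libraries, and vehicle overlapped WT. The log2 difference was 0.22 (SE 0.151) between vehicle and WT, 0.13 (SE 0.151) between EVs and vehicle, and 0.36 (SE 0.151) between EVs and WT. The first was 0.03 without WT replicate 6, 0.41 without WT replicate 3 and -0.11 when adjusted for outside-exon reads, so its direction turned there. The last was 0.17 without WT replicate 6.

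The balance of the 3 tetraspanins differed in vehicle, where Cd63 and Cd9 took a smaller share and Cd81 a larger one. Per kb, Cd63 made up 12.8 to 13.1% of their sum in EV libraries, 9.34 to 9.62% in vehicle libraries and 12.6 to 17.6% in WT. Cd81 made up 76.3 to 77.1% in EV libraries, 80.8 to 82.2% in vehicle libraries and 71.1 to 76.7% in WT. Cd9 made up 10.1 to 10.7% in EV libraries, 8.41 to 9.78% in vehicle libraries and 10.7 to 12.4% in WT. None of these ranges in vehicle overlapped that of another group. The 17.6% and 71.1% in WT both came from replicate 6, and WT replicates 1 and 3 had 14% and 12.6% for Cd63 and 73.6% and 76.7% for Cd81.

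Tsg101 encodes the ESCRT-I subunit that recognises ubiquitinated cargo, on chr7:46888949-46919969 (minus strand). It had 26.2, 29.9 and 25.6 CPM in Rag1-/- + WT EVs, 30.6, 34.5 and 37.0 CPM in Rag1-/- + vehicle, and 28.3, 33.2 and 23.4 CPM in WT. All vehicle libraries were above all EV libraries, narrowly, and overlapped those of WT. Vehicle differed from WT by 0.27 (SE 0.129) on the log2 scale, and EVs from vehicle by -0.32 (SE 0.13). The first was 0.15 without WT replicate 6, 0.44 without WT replicate 3 and 0.02 when adjusted for outside-exon reads.

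Pdcd6ip encodes ALIX, which binds syntenin and the ESCRT-III proteins and helps to close off the budding vesicle, on chr9:113651744-113708259 (minus strand). Its levels were 74.3, 78.9 and 70.8 CPM in Rag1-/- + WT EVs, 92.3, 89.5 and 87.3 CPM in Rag1-/- + vehicle, and 75.6, 82.7 and 63.2 CPM in WT. The vehicle libraries were the 3 highest of all 9, and the other groups overlapped. The log2 difference was 0.28 (SE 0.1) between vehicle and WT, -0.26 (SE 0.101) between EVs and vehicle, and 0.02 (SE 0.101) between EVs and WT. The first was 0.18 without WT replicate 6, 0.42 without WT replicate 3 and 0.08 when adjusted for outside-exon reads.

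Rab27b, whose product tethers loaded endosomes at the cell surface, was far more abundant in this tissue than its close relative Rab27a. Rab27b had 49.6, 46.7 and 49.2 CPM in Rag1-/- + WT EVs, 52.4, 54.3 and 57.5 CPM in Rag1-/- + vehicle, and 54.7, 52.5 and 54.0 CPM in WT. The EV libraries were the 3 lowest of all 9, and vehicle overlapped WT. In log2 terms the difference was 0.03 (SE 0.0744) between vehicle and WT, -0.18 (SE 0.0747) between EVs and vehicle, and -0.15 (SE 0.0747) between EVs and WT. With offsets for GC content and exonic length the last was 0.01, so its direction turned there, and the first was 0.23. The first also turned, to -0.03 with upper-quartile factors and -0.02 with a filter of at least 1 CPM. With any 1 library left out, the first was 0.02 to 0.08.

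Rab27a, which helps secretory organelles to dock, lies on chr9:73044854-73097629 (plus strand) and rested on the fewest reads. It had 3.40, 2.79 and 3.42 CPM in Rag1-/- + WT EVs, 3, 2.79 and 2.38 CPM in Rag1-/- + vehicle, and 2.74, 2.42 and 2.37 CPM in WT, from 91 to 116 reads per library. EV libraries overlapped those of vehicle and lay above those of WT. On the log2 scale the difference was 0.12 (SE 0.187) between vehicle and WT, 0.24 (SE 0.187) between EVs and vehicle, and 0.35 (SE 0.188) between EVs and WT. At this depth all 3 were within 2 SE of 0. The first was 0.07 to 0.23 with any 1 library left out.

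Smpd3 encodes neutral sphingomyelinase 2, the enzyme behind the ceramide route of vesicle budding, which is strongly expressed in brain, on chr8:106252548-106337988 (minus strand). Its levels were 64.7, 56.8 and 57.4 CPM in Rag1-/- + WT EVs, 75.4, 73.0 and 64.8 CPM in Rag1-/- + vehicle, and 56.3, 67.6 and 50.4 CPM in WT. Vehicle replicate 3 and EV replicate 2 nearly met, and vehicle overlapped WT. Vehicle differed from WT by 0.29 (SE 0.114) on the log2 scale, and EVs from vehicle by -0.25 (SE 0.114). Its vehicle to WT value was 0.20 without WT replicate 6, 0.46 without WT replicate 3 and 0.10 when adjusted for outside-exon reads. The difference between EVs and WT was 0.04 (SE 0.115).

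**Figure D2:**
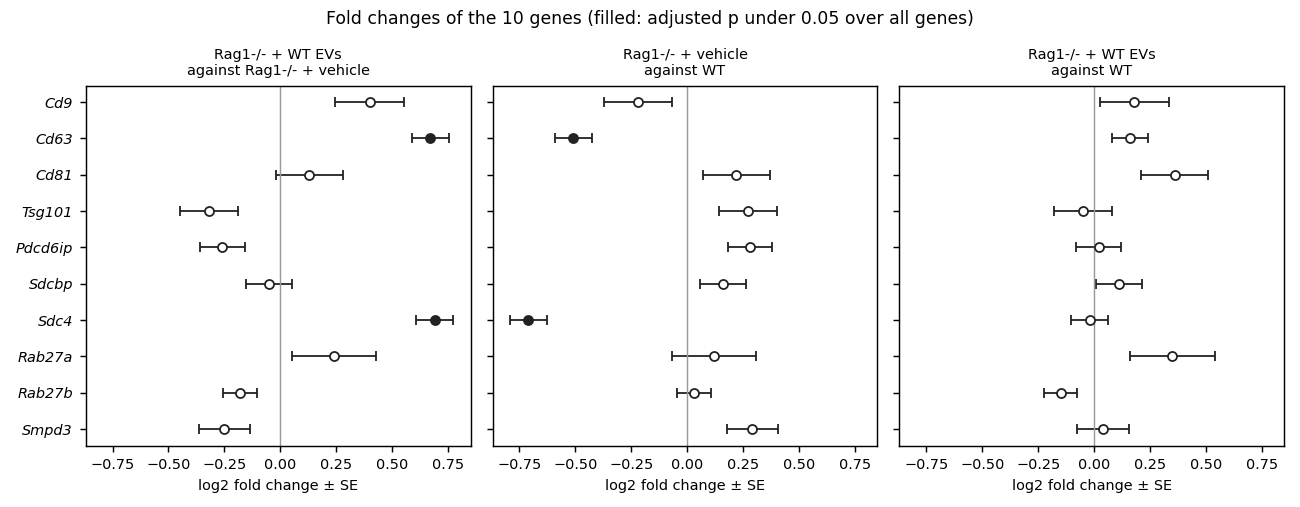
log2 fold change of each of the 10 genes (x axis, bars ± SE) in EVs against vehicle, vehicle against WT and EVs against WT; filled points have an edgeR adjusted p under 0.05 over all genes. Sdc4 (0.69 and -0.71) and Cd63 (0.67 and -0.51) are filled in the first 2 panels, and no point is filled for EVs against WT.

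Counted over the whole table, with an edgeR quasi-likelihood test and Benjamini-Hochberg adjusted p under 0.05, 2 of the 10 genes were called for Rag1-/- + vehicle against WT (Sdc4 and Cd63, both lower), beside 16.0% of all tested genes (6.28% higher, 9.71% lower). DESeq2 called 3 and limma-voom 2, beside 4457 and 1608 of all 17948 genes. Vehicle was lower than WT with no overlap for 2 genes and higher for 1, beside 19.8% and 18.3% of all genes (38.1% in either direction). The median log2 difference of the 10 was 0.14 and that of all genes -0.03. Leaving out vehicle replicate 1, 2 or 3, or WT replicate 1, left 0 of the 10 called, with 0 to 3 called over all genes. When WT replicate 3 was dropped 7 were called, beside 6602 of all 18842 genes tested. When WT replicate 6 was dropped 3 were called (Cd9, Cd63 and Sdc4), beside 1483 of 18060. A fit on the 6 libraries of the comparison alone called 0 of the 10 and 0 of all genes.

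For Rag1-/- + WT EVs against Rag1-/- + vehicle, 2 of the 10 genes were called (Sdc4 and Cd63, both higher), beside 3.42% of all genes. Over all genes 390 (2.17%) were higher and 223 (1.24%) lower, a split that became 266 and 246 with DESeq2's size factors. EVs lay above vehicle with no overlap for 4 genes (Cd9, Cd63, Cd81 and Sdc4) and below it for 4 (Tsg101, Pdcd6ip, Rab27b and Smpd3), beside 20.1% and 16.8% of all genes (37.0% in either direction). The median log2 difference was 0.04 for the 10 and 0.04 for all genes. The number called was 0 without EV replicate 2 or 5 or any one vehicle library, with 0 to 1 called over all genes. It was 5 without WT replicate 6, beside 2985 of all 18060 genes tested. It was also 5 when the 6 libraries were fitted alone, beside 3289 of 16613.

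For Rag1-/- + WT EVs against WT, edgeR called 0 of the 10 genes, DESeq2 0 and limma-voom 0, beside 0.0446% of all genes by edgeR (0.039% higher, 0.00557% lower). Of the 10, 1 gene had an unadjusted p under 0.05. EVs lay above WT with no overlap for 3 genes (Cd63, Cd81 and Rab27a) and below it for 1 (Rab27b), beside 8.72% and 7.73% of all genes (16.5% in either direction). The first 2 comparisons share the vehicle libraries, so a low vehicle level gives opposite signs in both. Sdc4 and Cd63 were below every WT and every EV library in all vehicle libraries, which held for 10.9% of all genes, and Pdcd6ip was above them, which also held for 10.9%.

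Per kb of exon, the order of the levels was much the same in the 3 groups. Cd81 stood first, at 61.1 ± 2.33 CPM per kb in Rag1-/- + WT EVs, 55.6 ± 0.598 in Rag1-/- + vehicle and 47.7 ± 12 in WT (SD, n = 3 each). Sdc4 followed with 38.6 ± 1.32, 23.9 ± 1.13 and 39.1 ± 2.79 CPM per kb in the same groups, so that it was close to Cd81 in WT and close to Sdcbp (21.1 ± 0.792) in vehicle. Smpd3, Pdcd6ip and Tsg101 stood next and their ranges of mean ± SD overlapped in every group, at 9.99 to 11.4 CPM per kb with EVs, 12.5 to 13.6 with vehicle and 10.4 to 11.1 in WT. Cd63 was level with Pdcd6ip and Tsg101 in EV libraries (10.3 ± 0.22) and level with Cd9 in vehicle libraries, where Cd63 had 6.47 ± 0.0827 and Cd9 6.31 ± 0.496 CPM per kb. Rab27b had 4.54 to 5.13 CPM per kb as group means and Rab27a, the lowest in every group, 0.647 to 0.826.

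The 10 genes also differed in how far replicates spread. The coefficient of variation over 3 libraries was 1.78 to 11.3% in Rag1-/- + WT EVs, 1.07 to 11.6% in Rag1-/- + vehicle and 2.17 to 25.1% in WT. The widest in WT were Cd81 (25.1%) and Cd9 (23.6%), both with WT replicate 6 far below the other WT libraries. Sdc4, Cd63, Rab27a and Rab27b stayed under 8% there.

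The rest of the pathway was read from 10 lists of other vesicle genes, 135 genes with 127 tested, which were put together by function. For Rag1-/- + vehicle against WT, 20 of the 127 passed the edgeR test (15.7%), 10 higher and 10 lower, close to the 16.0% of all genes. DESeq2 called 31 and limma-voom 13, beside 4457 and 1608 of all 17948 genes. Leaving out any one vehicle library, or WT replicate 1, left 0, with 0 to 3 called over all genes. The number was 45 without WT replicate 3, 11 without EV replicate 2 and 9 without EV replicate 3, beside 6602, 1826 and 1422 over all genes. It was 14 when WT replicate 6 was dropped (beside 1483 of all 18060 genes), of which 12 were among the 20. The 8 calls lost there were Ptpn23, Tspan6, Tspan32, Arf6, Tbc1d10b, Ext1, Ext2 and Sgms1, with edgeR adjusted p of 0.0502 to 0.112, and each kept its sign. Of the 12 others, the log2 differences of Igsf8, Itga3, Cd47, Cers6 and Ugcg were nearer 0 without that library, at 0.59, 0.56, 0.43, 0.39 and 0.38. Those of Snap23, Vamp7 and Vamp3 were also nearer 0, at -0.53, -0.32 and -0.61, and slightly those of Tspan12 (-0.68) and Pdcd6 (-0.33). Cd53 was further from 0, at -0.54, and Rab31 stayed at -0.53. Adjusted for outside-exon reads, the number called was 2, beside 109 of all 17948 genes, and only 1 of the 2 was among the 20. Most calls named below for vehicle against WT were thus not made under that setting.

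Around the tetraspanins, 4 of 25 other family members tested were called lower in vehicle than in WT, which were all the calls of that list. They made 16.0% of the list, the same as the 16.0% of all genes called (9.71% lower). Tspan12, a partner of Frizzled receptors, had 17.8 ± 0.973 CPM in vehicle and 29.1 ± 3.15 CPM in WT (SD, n = 3 each), a log2 difference of -0.71 (SE 0.109, edgeR adjusted p = 0.015). Cd53, a tetraspanin of leukocytes and microglia, had 5.91 ± 0.521 and 8.29 ± 1.03 CPM in vehicle and WT (log2 -0.49, edgeR adjusted p = 0.0341), and Tspan6 differed by -0.53 (edgeR adjusted p = 0.0358). The remaining one, Tspan32, named here after its values were seen, averaged 0.0603 CPM in vehicle and 0.402 CPM in WT. Of 7 tetraspanin partners, 3 were called higher in vehicle than in WT (42.9%, beside 6.28% of all genes). They were Igsf8, which binds CD9 and CD81, by 0.79 (edgeR adjusted p = 0.0251), Itga3, an integrin subunit, by 0.71 (edgeR adjusted p = 0.0214), and Cd47, a signal against phagocytosis, by 0.57 (edgeR adjusted p = 0.0262).

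Among the genes next to Tsg101 and Pdcd6ip, Pdcd6, which encodes the calcium sensor ALG-2 that binds ALIX, had 31.5 ± 1.97 CPM in vehicle and 40.0 ± 0.955 CPM in WT (SD, n = 3 each), a log2 difference of -0.35 (edgeR adjusted p = 0.0283). Ptpn23, which encodes a Bro1-domain relative of ALIX, differed the other way, by 0.30 (edgeR adjusted p = 0.0319). No other of the 18 later ESCRT genes tested was called, so 11.1% of them were, beside 16.0% of all genes. Of the 11 tested genes of ESCRT-0 and ESCRT-I edgeR called 0, with 5 at an unadjusted p under 0.05, DESeq2 2 and limma-voom 0. Beside Sdc4, 2 of 9 genes of the syndecan list were called (22.2%, beside 16.0% of all genes). The heparan sulfate polymerases Ext1 and Ext2 were higher in vehicle by 0.36 and 0.32 (edgeR adjusted p = 0.0328 and 0.0373), opposite in sign to Sdc4 itself.

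The SNARE genes of membrane fusion gave 3 calls of 7, all lower in vehicle than in WT (42.9%, beside 9.71% of all genes). Vamp3 had 19.1 ± 0.889 CPM in vehicle and 30.4 ± 4.35 CPM in WT (SD, n = 3 each), log2 -0.67 (edgeR adjusted p = 0.0182). Vamp7 differed by -0.44 (edgeR adjusted p = 0.0301) and Snap23 by -0.94 (edgeR adjusted p = 0.0307). Snap23 had 10.4 and 8.55 CPM in WT replicates 1 and 3 and 18.7 CPM in WT replicate 6, and its difference was -0.53 without the last (edgeR adjusted p = 0.0283). Of 13 other small GTPases and regulators, 3 were called (23.1%, beside 16.0% of all genes). Rab31, a Rab of endosomal sorting, had 64.4 ± 2.98 CPM in vehicle and 93.2 ± 5.87 CPM in WT, log2 -0.53 (edgeR adjusted p = 0.015), while Arf6 and Tbc1d10b were higher by 0.37 and 0.32 (edgeR adjusted p = 0.0473 and 0.0489). Of Arf6's exonic length, 13.6% overlaps another gene.

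In the lipid list around Smpd3, 3 of 16 tested enzymes were called (18.8%, beside 16.0% of all genes). Cers6, a ceramide synthase, had 76.5 ± 2.28 CPM in vehicle and 53.9 ± 8.17 CPM in WT (SD, n = 3 each), log2 0.51 (edgeR adjusted p = 0.0253). Ugcg, which makes glucosylceramide, was higher by 0.55 (edgeR adjusted p = 0.0365), and Sgms1, which makes sphingomyelin, was lower, at -0.30 (edgeR adjusted p = 0.044). Of 10 tested Rab27 effectors edgeR called 0, with 1 at an unadjusted p under 0.05, and DESeq2 and limma-voom called 0. Of 11 marker and cargo genes edgeR called 0, with 3 at an unadjusted p under 0.05, DESeq2 1 and limma-voom 0.

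For Rag1-/- + WT EVs against Rag1-/- + vehicle, 7 of the 127 genes passed (5.51%, beside 3.42% of all genes), 5 higher and 2 lower. DESeq2 called 16 and limma-voom 4, beside 2169 and 415 of all 17948 genes. Rab31 had 91.4 ± 3.66 CPM with EVs and 64.4 ± 2.98 CPM with vehicle (SD, n = 3 each), log2 0.51 (edgeR adjusted p = 0.0242). Tspan12 was higher by 0.57 (edgeR adjusted p = 0.0305), Vamp3 by 0.52 (edgeR adjusted p = 0.0423), Rom1, a tetraspanin best known from photoreceptors, by 0.85 (edgeR adjusted p = 0.0423), and Tbc1d10a, a GTPase-activating protein for Rab27a and Rab35, by 0.41 (edgeR adjusted p = 0.0425). Cers6 was lower with EVs, at 52.6 ± 4.17 CPM against 76.5 ± 2.28 CPM with vehicle, log2 -0.54 (edgeR adjusted p = 0.0343), and Ptpn23 differed by -0.37 (edgeR adjusted p = 0.0344). The number called was 0 without EV replicate 2 or 5, any one vehicle library or WT replicate 1, with 0 to 17 called over all genes. It was 3 when EV replicate 3 was dropped and 24 when WT replicate 6 was, beside 222 of 18956 and 2985 of 18060 genes.

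For Rag1-/- + WT EVs against WT, edgeR called 0 of the 127 genes, with 27 at an unadjusted p under 0.05, DESeq2 called 7 and limma-voom 0, beside 0.0446% of all genes by edgeR. Over all 17948 genes DESeq2 called 397. Without WT replicate 3 edgeR called 14, beside 1537 of all 18842 genes.

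**Figure D3:**
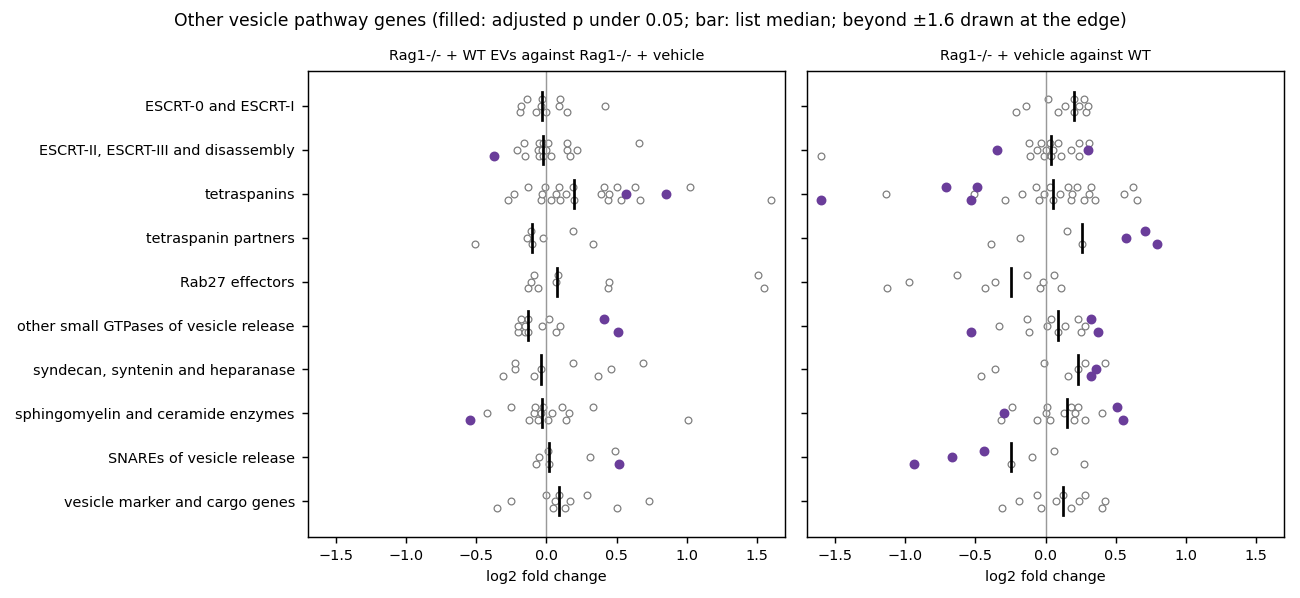
log2 fold change (x axis) of the 127 tested genes of 10 vesicle lists (y axis) in EVs against vehicle and vehicle against WT; each point is a gene, filled points have an edgeR adjusted p under 0.05, black bars are list medians, and points beyond 1.6 are drawn at the edge. For vehicle against WT the 3 called SNARE genes lie left of 0 and the 3 called tetraspanin partners right of it.

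Sdc4 and Cd63 are transcribed in several cell types, and in bulk tissue fewer cells of a type and less RNA per cell cannot be told apart. The 8 astrocyte markers moved with Sdc4. They summed to 10200 to 10500 CPM in Rag1-/- + WT EVs, 7270 to 8220 CPM in Rag1-/- + vehicle and 10800 to 12600 CPM in WT, with no marker at 0. Of the 8, 6 were called for vehicle against WT, all lower, and 3 for EVs against vehicle, all higher. Their part in the Sdc4 and Cd63 values was not tested.

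Set against the astrocyte sum, Sdc4 had 9.35 to 10 CPM per 1000 marker CPM in EV libraries, 7.67 to 8.10 in vehicle libraries and 8.52 to 9.07 in WT. The 3 ranges did not overlap and vehicle was lowest, but much closer to WT in proportion than in CPM. In CPM Sdc4 had 58.9 to 64.1 in vehicle and 93.7 to 107 in WT. Cd63 had 3.53 to 3.77 CPM per 1000 marker CPM in EV libraries, 2.94 to 3.27 in vehicle libraries and 2.88 to 3.20 in WT, where vehicle and WT overlapped and EVs lay above both. Cd9 had 1.59 to 1.74 in EV libraries, 1.52 to 1.89 in vehicle libraries and 1.03 to 1.5 in WT, so on this scale vehicle lay above WT and overlapped EVs. That gap was narrow, with 1.52 in vehicle replicate 2 beside 1.5 in WT replicate 3, and the 1.03 came from WT replicate 6.

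The microglia and the pericyte and smooth muscle markers moved in the same directions as the astrocyte markers. The 8 microglia markers summed to 332 to 357 CPM with EVs, 250 to 279 CPM with vehicle and 226 to 349 CPM in WT, where WT replicate 6 was lowest. All 8 had fold changes below 0 in vehicle against WT (median log2 -0.17) and above 0 in EVs against vehicle (median 0.40). The pericyte and smooth muscle markers summed to 116 to 179 CPM with EVs, 115 to 119 CPM with vehicle and 162 to 237 CPM in WT, and the 5 tested had medians of -0.32 and 0.38 in the same comparisons. No marker of either list was at 0 over a whole group. The 6 endothelial markers had medians of -0.11 and 0.16, with 4 below 0 in the first comparison and 5 above 0 in the second.

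The 8 oligodendrocyte markers summed to 2140 to 3210 CPM with EVs, 1800 to 1970 CPM with vehicle and 1660 to 3160 CPM in WT. Their median log2 was 0.16 for vehicle against WT (5 above 0) and 0.22 for EVs against vehicle (8 above 0). The 5 choroid plexus markers, at most 7.25 CPM in sum, had medians of 0.55 and 1.11 in these comparisons. The 5 markers of red blood cells had medians of -0.79 and -1.44. The 8 markers of meningeal fibroblasts, cells of the membranes around the brain, had their highest sums with EVs. They summed to 715 to 1230 CPM with EVs, 447 to 582 CPM with vehicle and 231 to 452 CPM in WT. Of these markers, 2 were called higher in each of vehicle against WT, EVs against vehicle and EVs against WT. For EVs against WT all 8 had fold changes above 0 (median log2 1.37). Over all 17948 genes, 8 were called in that comparison. Sdc4 per 1000 CPM of these markers was 77.4 to 143 with EVs, 110 to 132 with vehicle and 207 to 423 in WT. The summed meningeal markers ran opposite to Sdc4 and Cd63 in vehicle against WT, and the same way in EVs against vehicle. The neuron sum was 9830 to 10500 CPM with EVs, 9880 to 10500 CPM with vehicle and 9890 to 11100 CPM in WT, while the median neuron marker differed by 0.37 on the log2 scale between vehicle and WT and by -0.28 between EVs and vehicle, as Pdcd6ip, Tsg101 and Smpd3 did in sign. Their part in the values of the 10 genes was not tested.

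**Figure D4:**
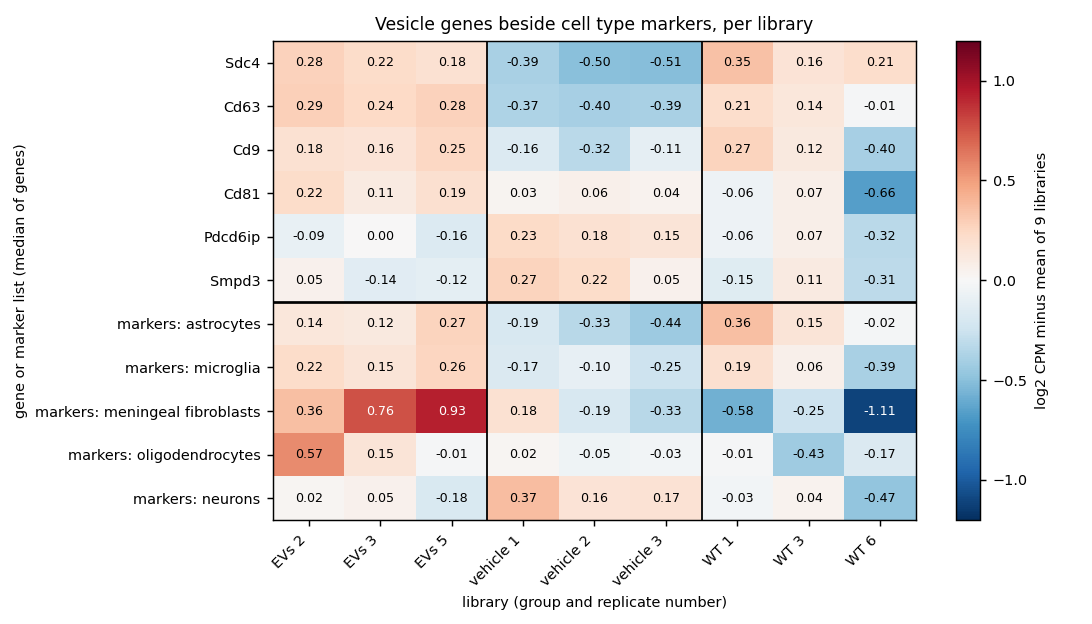
log2 CPM minus the mean of 9 libraries (colour and number) for 6 of the 10 genes and the median gene of 5 marker lists (rows), in each library (columns, EVs, vehicle, WT). Sdc4, Cd63 and the astrocyte markers are below 0 in all 3 vehicle libraries, Pdcd6ip and the neuron markers above 0, and WT replicate 6 is low for Cd81 and Cd9.

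The gene whose pattern over the 9 libraries was closest to each of the 10 was found among protein-coding genes averaging at least 5 CPM, by the mean absolute difference of centred log2 CPM. For Sdc4 it was Aldoc, the aldolase of astrocytes, at 0.041, beside a median of 0.347 over the 10628 genes compared. For Cd63 it was Psph, an enzyme of serine synthesis, at 0.044. Cd81 was closest to Car4 (0.047), a carbonic anhydrase of brain capillaries, and Smpd3 to Sh3bgrl2 (0.028).

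Other pairs were Trpc1 (Tsg101, 0.045), Ubqln1 (Pdcd6ip, 0.022), Rsrp1 (Rab27a, 0.049) and Ythdc1 (Rab27b, 0.035). Among the 10 themselves, Sdc4 and Cd63 were each other's nearest, at 0.083, and Pdcd6ip and Smpd3 at 0.07. Over all genes compared, Cd63 ranked 21 in closeness to Sdc4, and Sdc4 ranked 22 to Cd63. Smpd3 ranked only 660 to Pdcd6ip, and Pdcd6ip 118 to Smpd3. The median distance over genes was 0.305 for Cd63, 0.162 for Pdcd6ip and 0.174 for Smpd3. These distances share the same 9 libraries, depth and group structure and are a description.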

How the data were processed

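The authors aligned 75-bp read pairs from directional libraries to the mouse genome (GRCm38) with STAR (2.7.5c) after bcl2fastq (2.18.0.12), and counted reads over exons with HTSeq (0.11.1 per the labels) at a minimum alignment quality of 10 without using strand. The values analysed are the raw gene counts the authors deposited as 1 table for 9 libraries. The 5 lines naming no gene were kept out of library sizes and tests, and reads outside exons, one of them, took 6.54 to 30.1% of reads.

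Identifiers were matched to GENCODE M21 (55230 of 56246 rows, 98.19%). The 3 groups came from the labels. One edgeR model (4.0.16, in R 4.3.3) held the 9 libraries. Genes were kept by filterByExpr, with a count of at least 10 and a total of at least 15, library sizes were scaled by TMM, and 2-sided quasi-likelihood p-values were adjusted over 17948 genes by Benjamini-Hochberg, with a threshold of 0.05. Each SE was taken as the absolute log2 fold change over the square root of F. The fit was checked on simulated data. Limma (3.58.1) and DESeq2 (1.42.0) served as alternatives, among 11 other settings and 9 that left out a library. CPM use TMM-scaled library sizes, and log2 CPM a pseudocount of 0.5.

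The members, gene lists and markers were chosen with earlier results of these data known. Genes named were the 10 members, Rag1, up to 3 called genes per list and comparison with the smallest p, and the closest gene to each member, which is not reported here for Cd9 and Sdcbp. Sdc3, Tspan32 and Cd3d were named beside these after their values were seen. Promoters and miRNAs were taken from RefSeq tables (GRCm38.p6) and 3' UTRs from GENCODE. No library sequences were read, and the authors' own test results were not used.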

Additional observations from a re-analysis of the deposited data

How the results depend on the processing

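Sdc4, Cd63 and Cd9 kept their direction in vehicle against WT and in EVs against vehicle under every alternative run, from -0.77 to -0.62 and 0.63 to 0.76 for Sdc4 and from -0.61 to -0.43 and 0.61 to 0.70 for Cd63. For Cd9 the ranges were -0.51 to -0.05 and 0.29 to 0.53, the -0.05 being without WT replicate 1. Tsg101, Pdcd6ip, Rab27a and Smpd3 kept their direction in both comparisons too. Their values in vehicle against WT came down to 0.02, 0.08, 0.04 and 0.10. Cd81, Sdcbp and Rab27b turned under some settings in vehicle against WT, and Sdcbp also in EVs against vehicle. Counts of calls moved much more. In vehicle against WT, where edgeR called 2 of the 10 genes, 20 pathway genes and 2871 genes in all, DESeq2 called 31 pathway genes and 4457 in all, limma-voom 13 and 1608, a fit on the 6 libraries 0, 0 and 0 (5387 at an unadjusted p under 0.05), no filter 4 of the 10 and 5089 in all, a covariate for each library's outside-exon reads 2 pathway genes and 109 in all, and a fold of at least 1.5 gave 1, 6 and 1340. In EVs against vehicle (2, 7 and 613), DESeq2 called 16 pathway genes and 2169 in all, the 6-library fit 5, 28 and 3289, limma-voom 4 pathway genes, no filter 11 and 1102, at least 1 CPM in 3 libraries 1149 in all, the covariate 4, 17 and 1827, and a fold of at least 1.5 gave 1 and 222. In EVs against WT (0, 0 and 8), DESeq2 called 7 pathway genes and 397 in all, the 6-library fit 0 in all (1890 at an unadjusted p under 0.05), no filter 9 and 668, at least 1 CPM 20 and the covariate 28 in all. Leaving out 1 library at a time gave 0 to 7 of the 10 genes, 0 to 45 pathway genes and 0 to 6602 genes in vehicle against WT, 0 to 5, 0 to 24 and 0 to 2985 in EVs against vehicle, and 0 to 14 pathway genes and 0 to 1537 genes in EVs against WT, where 0 of the 10 were called each time. The cause of these shifts was not tested. Where an arm was left with 2 libraries, all libraries still shared 1 estimate of the spread. Counting noise is widest for Rab27a, with 91 to 116 reads per library.

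Replicate numbers in the titles were tried as a block. Same-numbered libraries of different groups had correlations of 0.0795, -0.153, 0.087, 0.16 and 0.0172 in their deviations from group means, so the numbers were not shown to pair libraries. With the block, 2 of the 10 genes (Sdc4 and Cd63) were called in vehicle against WT and 2 in EVs against vehicle, with 10 pathway genes and 712 genes in all in the first, 741 genes in all in the second, and 5 genes in all in EVs against WT.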
